A study of Mus musculus with 24 samples.

Results

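Hippocampal RNA from 12 adult mice that carry the Nestin-Cre transgene was compared, 6 Egr1cKO mice and 6 Cre control mice, with 3 females and 3 males of each. They were chosen by the genotype in the sample labels from a series of 24 mice, and the other 12 mice carry no Cre. Egr1cKO mice (Egr1f NesCre+, FF (+) in the labels) have Egr1 alleles flanked by loxP sites from a C57BL/6N strain. Cre control mice (Egr1wt NesCre+, wt (+) in the labels) have wild-type Egr1 alleles. Because both groups carry the Nestin-Cre transgene, the comparison asks what the loss of Egr1 does to hippocampal expression apart from any effect of Cre itself. The 12 mice without Cre are 6 complete wild type mice (Egr1wt NesCre-) and 6 floxed mice (Egr1f NesCre-, the Egr1cKO control of the labels), again 3 females and 3 males each. The mouse numbers in the labels form separate ranges for floxed and wild-type alleles, so the Egr1 allele and the series of mice cannot be told apart.

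EGR1 is a zinc finger transcription factor encoded by an immediate early gene, which neurons switch on within minutes of activity. It binds GC-rich promoter motifs and is known in the hippocampus for its part in long-term potentiation and in the consolidation of memory. EGR2, EGR3 and EGR4 are paralogs that recognize closely related motifs, and the NAB1 and NAB2 proteins bind to EGR factors and hold back their activity. Nestin-Cre is active in neural precursor cells, so that neurons, astrocytes and oligodendrocytes descend from cells with Cre, whereas microglia and blood vessel cells arise from other lineages and can keep the floxed gene intact.

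Counts per mouse summed to between 18413714 and 27677816 over the 12 mice. The labels give the tissue as hippocampus and the cell type as endocrine. The 23 hippocampal subfield markers summed to between 1674 and 2682 CPM (counts scaled to library size with TMM factors), while the 8 of 10 pituitary hormone cell markers in the table summed to between 1.86 and 4.08 CPM, with Cga at 0 in all 12 mice. Markers of the choroid plexus, 18 genes that include Ttr, summed to 2899 CPM in Cre control female 1 and 1648 CPM in Egr1cKO male 2, against 138 to 516 CPM in the other 10 mice. The comparison over the 12 mice was also run without these 2 mice. In whole tissue, fewer cells of a type and less RNA per cell cannot be told apart.

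Egr1 was the gene that separated the groups most clearly. Egr1 (ENSMUSG00000038418, chr18:34859823-34864984 on GRCm38) was at 10.2, 9.49 and 8.52 CPM in female and at 6.82, 7.83 and 4.86 CPM in male Egr1cKO mice. In Cre control mice it was at 125, 47.7 and 94.4 CPM in females and at 75.9, 65.5 and 106 CPM in males. Every Egr1cKO mouse lay below every Cre control mouse, and the 2 groups did not overlap in either sex. The mean of the Egr1cKO mice was 9.28% of that of the Cre controls (10.6% in females and 7.90% in males). The fitted log2 fold change (log2FC) was −3.45, a 10.9-fold lower level, with a standard error (SE) of 0.21 and an adjusted p of 6.96e-07 from edgeR (2.64e-234 to 3.22e-05 over the alternative settings). On log2(CPM + 1) the difference was −3.24 with a p of 0.00216 in a two-sided exact permutation test of 6 mice against 6, the smallest p that this design allows. In the mice without Cre, Egr1 ranged from 67.0 to 147 CPM in floxed and from 63.8 to 149 CPM in wild-type mice. Their log2 difference was −0.22 (SE 0.19, adjusted p = 0.680), and the difference between the contrasts with and without Cre was −3.21 (SE 0.31, adjusted p = 1.26e-06).

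**Figure D1:**
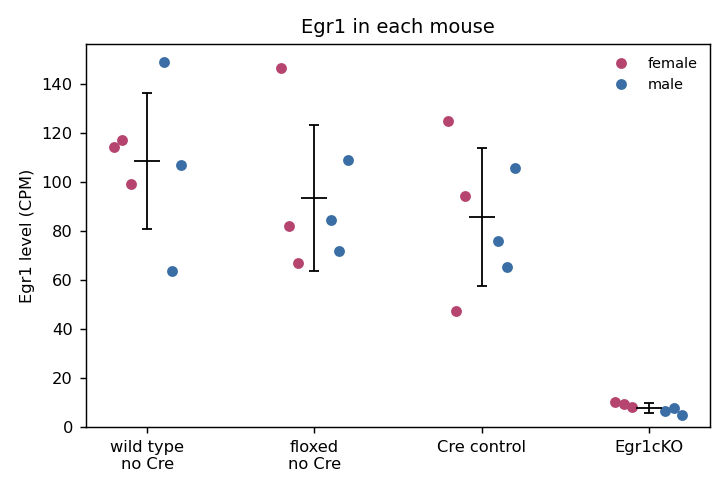
Egr1 level in CPM in each of the 24 mice, by genotype on the x axis, with females and males as points and the mean ± SD of 6 mice as black marks. The 6 Egr1cKO mice sit between 4.86 and 10.2 CPM, and the other 18 mice between 47.7 and 149 CPM.

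Beyond Egr1, no gene passed the test over the 12 mice. With sex as a covariate, 17909 genes were tested and Egr1 was the only differentially expressed gene (DEG), 0.00558% of the genes tested. A DEG had to change 1.2-fold or more with its adjusted p not above 0.05. An unadjusted p under 0.05 was found for 2159 genes (12.1%). DESeq2, the tool of the study's pairwise comparisons, called 30 genes (0.135% of the genes to which it gave an adjusted p), of which 14 (0.063%) were higher and 16 (0.072%) lower in Egr1cKO mice. Of these 30 genes, 26 passed the count filter of edgeR, and the 25 other than Egr1 each had an adjusted p of 0.357 there. Without Cre control male 2, edgeR called 795 genes, 608 higher and 187 lower. All 6 Egr1cKO mice lay above all 6 Cre control mice for 24 genes and below them for 39, which together are 0.352% of the genes tested.

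Within the EGR family, Egr1 alone passed the test. Egr2 was at 14.7, 11.1 and 14.4 CPM in female and 2.01, 11 and 8.0 CPM in male Egr1cKO mice, and at 12.2, 1.95 and 4.60 CPM in female and 4.69, 0.718 and 5.71 CPM in male Cre controls. The groups overlapped, with a log2FC of 1.00 (SE 0.45, unadjusted p = 0.0403, adjusted p = 0.395). Egr3 was at 172 ± 35.9 CPM in Egr1cKO and 141 ± 17.1 CPM in Cre control mice (mean ± SD, n = 6 each), with 4 of 6 Egr1cKO mice above all controls and a log2FC of 0.27 (SE 0.10, adjusted p = 0.359). Egr4 was at 67.1 ± 20.6 against 47.8 ± 11.8 CPM, again with 4 of 6 mice above all controls and a log2FC of 0.46 (SE 0.18, adjusted p = 0.366). With the mean level of TEC genes, a class of unconfirmed transcripts described below, as a covariate, the log2FC was 0.090 for Egr4 and 0.14 for Egr3. The 3 female Egr1cKO mice held the highest Egr3 levels of the 12, between 178 and 220 CPM. For Egr4 they were at 101, 67.7 and 70.5 CPM, and Egr1cKO male 2 was at 68.1 CPM. The genes of the corepressors were nearly level between the groups, with a log2FC of 0.032 for Nab1 (SE 0.084, adjusted p = 0.898) and −0.072 for Nab2 (SE 0.10, adjusted p = 0.791), and the sign for Nab1 turned when Cre control female 2 was left out. Per kb of exon, Egr1 was at 19.1 CPM in Cre controls, between Egr4 at 22.2 and Nab2 at 8.07 CPM per kb, and in Egr1cKO mice it was at 1.77, close to the 1.46 CPM per kb that Egr2 had in Cre controls.

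The 30 genes that DESeq2 called are described next, named after their values were seen. All 14 higher genes are protein coding. Of the 16 lower genes, Egr1, Rgs11, Muc3a and Gm21860 are protein coding and 9 belong to the TEC class, transcribed regions that still await experimental evidence and that often lie within introns of other genes. Of the 25 genes tested in each sex, 25 had the same sign in females and males, 23 of them with the larger difference in females, and 17 of the 30 were also called by edgeR in females alone. These counts rest on the mice that chose the genes and are a description.

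Of the higher genes, Reln, Cntnap5b, Ncam2, Ptprg and Tenm1 encode matrix or membrane proteins of neurons. On the lists by function, DESeq2 called 1 adhesion gene, Cntnap5b, 1 matrix gene, Reln, and no axon guidance gene as higher. Reln (chr5:21884454-22344702) encodes reelin, a secreted matrix glycoprotein that guides neuronal positioning and is made by interneurons in the adult. It was at 87.9, 85.6 and 85.1 CPM in female and 85.8, 62.5 and 97.8 CPM in male Egr1cKO mice, and at 62.6, 52.7 and 48.2 CPM in female and 45.1, 81.2 and 43.6 CPM in male Cre controls. Of the Egr1cKO mice 5 of 6 were above all controls, and the sixth, male 2, was below Cre control male 2 and just below Cre control female 1 (log2FC 0.60, SE 0.15). Cntnap5b (chr1:99772765-100485942), of the contactin-associated family of adhesion proteins, was at 18, 18.5 and 17 CPM in female and 17.6, 14.6 and 11.5 CPM in male Egr1cKO mice, against 7.54, 9.80 and 9.0 CPM in female and 8.92, 14.4 and 10.3 CPM in male Cre controls. In females the groups were apart, and in males the highest control lay within the Egr1cKO range (log2FC 0.70, SE 0.16). Ncam2, a neural cell adhesion molecule, was at 94.3 ± 10.4 against 64.9 ± 12.1 CPM with a log2FC of 0.54 (SE 0.12). Ptprg, a receptor tyrosine phosphatase that binds contactins, was at 130 ± 12.1 against 101 ± 9.14 CPM with a log2FC of 0.36 (SE 0.075), and Tenm1, a teneurin of synaptic membranes, was at 50.1 ± 4.65 against 34.6 ± 7.72 CPM with a log2FC of 0.54 (SE 0.12). For Ncam2, Ptprg and Cntnap5b, 5 of 6 Egr1cKO mice were above all controls, and for Tenm1 3 of 6 were, because Cre control male 2 was at 50.1 CPM.

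Slc2a1 (chr4:119108711-119137983), the glucose transporter GLUT1 of brain endothelium and astrocytes, was at 115, 104 and 81.9 CPM in female and 56.6, 67.0 and 63.1 CPM in male Egr1cKO mice. In Cre controls it was at 55.4, 38.4 and 56.0 CPM in females and 51.6, 53.0 and 48.5 CPM in males. All 6 Egr1cKO mice were above all 6 controls (log2FC 0.65, SE 0.14), and the females were well apart while the lowest Egr1cKO male exceeded the highest control by less than 1 CPM. With the TEC level as a covariate the log2FC of Slc2a1 was 0.30. Ids (chrX:70343069-70365084), iduronate 2-sulfatase of the lysosome, was at 577, 657 and 610 CPM in female and 542, 523 and 616 CPM in male Egr1cKO mice, and between 437 and 504 CPM in all 6 Cre controls. The groups did not overlap, with a log2FC of 0.31 (SE 0.070). Lrp1, an endocytic receptor for lipoproteins, was at 636 ± 108 against 438 ± 66.1 CPM (log2FC 0.53, SE 0.12, and 0.24 with the TEC covariate).

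Other higher genes encode parts of signalling and of RNA and protein modification. Adcy3, an adenylyl cyclase, had a log2FC of 0.39 (SE 0.089), and Mylk, myosin light chain kinase, had 0.49 (SE 0.11), with all 6 Egr1cKO mice above all controls for Mylk. Tob2, an antiproliferative protein that recruits the deadenylation machinery, had a log2FC of 0.48 (SE 0.11). Zc3h12c, a CCCH zinc finger gene, had 0.54 (SE 0.13). Galnt15, of the GalNAc transferase family, had the largest difference of the higher genes at 1.01 (SE 0.23) and was at 4.20 ± 1.18 against 2.06 ± 0.632 CPM.

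Among the lower genes, Rgs11 (chr17:26202951-26211324), which speeds the GTP hydrolysis of G protein alpha subunits, was at 31.6, 30.4 and 29.7 CPM in female and 30.2, 39.7 and 39.8 CPM in male Egr1cKO mice. Cre controls were at 44.3, 42.5 and 45.5 CPM in females and 55.0, 40.1 and 45.2 CPM in males. All Egr1cKO mice were below all controls (log2FC −0.44, SE 0.092), by less than 1 CPM at the nearest pair of males. Muc3a, a mucin gene, was at 3.77, 3.32 and 3.48 CPM in female Egr1cKO mice against 9.26, 12.1 and 12.6 CPM in female controls. In males it was at 8.09, 11.5 and 14 CPM against 13.6, 11 and 15.3 CPM, so that the groups were apart in females and overlapped in males. The long noncoding RNA gene Lncpint was at 1.97 ± 0.475 against 4.09 ± 1.26 CPM and the groups did not overlap (log2FC −1.07, SE 0.24). The TEC genes were low, for example Gm42583 at 1.15 ± 0.363 against 3.29 ± 1.05 CPM (log2FC −1.51, SE 0.28) and Gm42772 at 0.688 ± 0.301 against 1.92 ± 0.395 CPM (log2FC −1.50, SE 0.33). Gm42770 had a log2FC of −1.65, Gm44802 −1.92, Gm38198 −1.84 and Gm44831 −1.19. The TEC gene 2900027M19Rik was at or below 0.297 CPM in female Egr1cKO and between 1.47 and 3.89 CPM in female control mice. Gm38116, Gm43256, Gm12468 and Gm48751, called by DESeq2 and below the count filter of edgeR, were at or below 0.0981 CPM in each Egr1cKO mouse and between 0.0960 and 0.728 CPM in each Cre control. Gm21860 is annotated on chromosome Y, had counts in females too and was below 1 CPM in every mouse, so reads from a copy elsewhere may be counted on it and its value is uncertain. The libraries are not stranded, so reads of genes within introns cannot be told from those of the host gene.

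**Figure D2:**
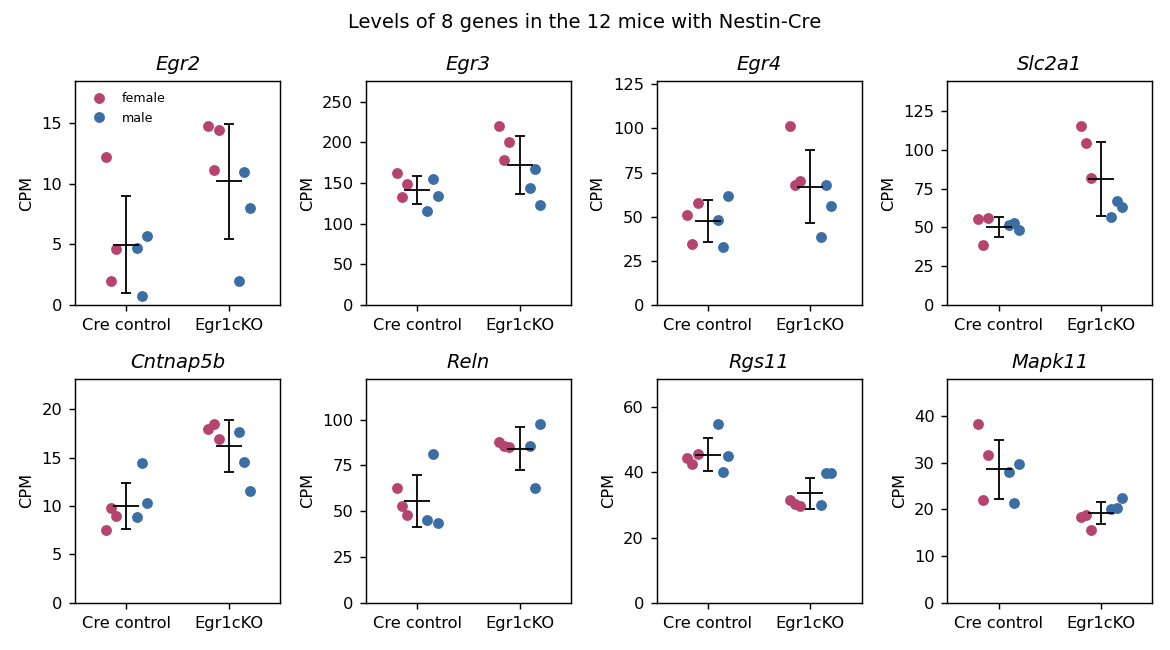
Levels in CPM of 8 genes in the 12 mice with Nestin-Cre, with females and males as points and the mean ± SD of 6 mice as black marks. For Slc2a1 and Rgs11 the groups do not overlap, and for Cntnap5b, Reln and Mapk11 5 of 6 Egr1cKO mice lie beyond all controls.

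**Figure D3:**
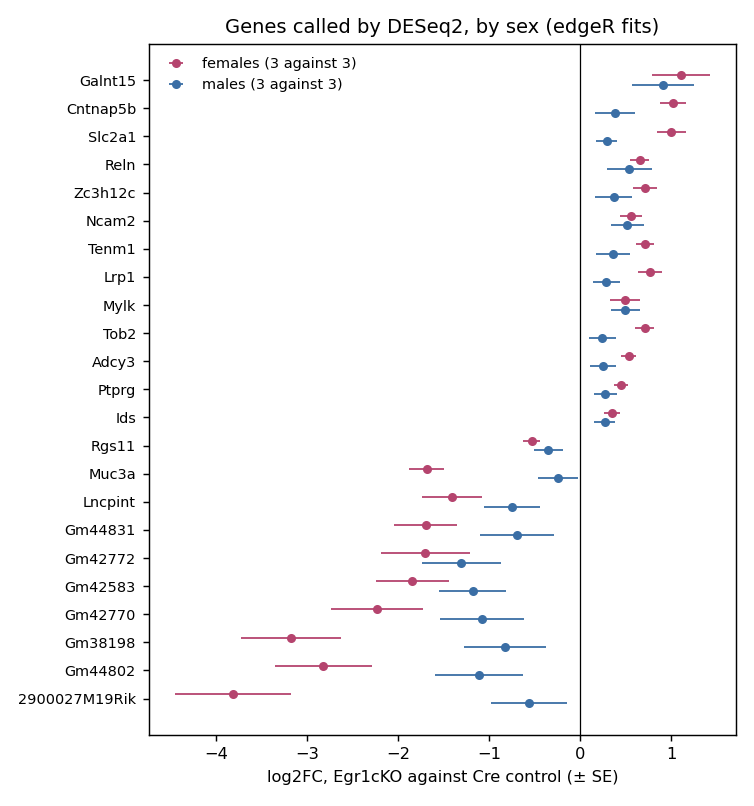
Log2FC of Egr1cKO against Cre control mice on the x axis for 23 of the genes called by DESeq2, from edgeR fits in females and in males, with bars of 1 standard error. In each gene shown both sexes have the same sign, and the female difference is the larger in most, as for Slc2a1 at 1.00 in females and 0.29 in males.

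The promoters of these genes were searched for the letters of the EGR consensus, GCGNGGGCG on the plus strand or CGCCCNCGC for the minus strand, in the 300 bases from 250 before to 50 after each RefSeq start (GRCm38.p6). Of the tested genes, 12372 had a promoter there and 11.8% of them held a match in any of their promoters. Over all 27025 genes with a promoter that share was 6.27%, and of all 32851 promoters 5.55% held a match. Of the 14 higher DESeq2 genes 13 had a promoter and 3 (23.1%) held a match, Reln, Ptprg and Ncam2, and their promoters are shown with the matches in capitals because these are the called genes that hold the motif. In Reln 2 matches overlap, and in Ptprg 2 matches lie apart. The 1 lower gene with a promoter held none. A match is a run of letters and not a site shown to be bound.
Reln, chr5:22344656-22344955, minus strand: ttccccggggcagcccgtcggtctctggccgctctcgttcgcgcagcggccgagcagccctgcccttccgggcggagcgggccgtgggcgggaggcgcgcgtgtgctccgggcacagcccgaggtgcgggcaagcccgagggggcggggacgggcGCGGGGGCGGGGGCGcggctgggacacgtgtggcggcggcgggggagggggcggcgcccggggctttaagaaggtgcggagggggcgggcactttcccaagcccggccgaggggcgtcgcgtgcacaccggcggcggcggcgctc
Ptprg, chr14:11553303-11553602, plus strand: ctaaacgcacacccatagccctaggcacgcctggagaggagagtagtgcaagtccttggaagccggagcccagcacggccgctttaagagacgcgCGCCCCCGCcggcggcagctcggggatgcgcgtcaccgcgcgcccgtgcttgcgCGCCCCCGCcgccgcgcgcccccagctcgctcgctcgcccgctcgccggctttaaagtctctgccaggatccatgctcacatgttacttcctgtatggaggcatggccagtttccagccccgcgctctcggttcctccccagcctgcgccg
Ncam2, chr16:81200447-81200746, plus strand: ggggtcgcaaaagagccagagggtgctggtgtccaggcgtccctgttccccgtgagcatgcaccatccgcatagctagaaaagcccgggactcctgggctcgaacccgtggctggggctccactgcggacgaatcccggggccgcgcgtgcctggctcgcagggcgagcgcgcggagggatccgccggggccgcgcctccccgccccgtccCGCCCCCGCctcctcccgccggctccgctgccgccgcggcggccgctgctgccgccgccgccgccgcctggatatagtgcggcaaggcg

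Of the genes that the study names for Egr1 loss, Cntnap5b, Ids and Gm42772 are given above. The study set the Egr1cKO mice against all other mice of the series and also fitted a mixed model to all genotypes. Its set of mice therefore differs from the comparison with Cre controls alone. Mapk11, which encodes p38 beta kinase, was at 18.3, 18.7 and 15.5 CPM in female and 20.2, 20.2 and 22.4 CPM in male Egr1cKO mice, against 38.3, 22.1 and 31.6 CPM in female and 28.1, 21.3 and 29.8 CPM in male Cre controls. Of the Egr1cKO mice 5 of 6 were below all controls, and the log2FC was −0.57 (SE 0.14, adjusted p = 0.357). Ptpn14, a tyrosine phosphatase of the Hippo pathway, was at 25.4 ± 6.36 against 16.6 ± 3.26 CPM, with 3 of 6 Egr1cKO mice above all controls and a log2FC of 0.62 (SE 0.16, adjusted p = 0.357). In DESeq2 neither gene was below an adjusted p of 0.05.

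Lists of genes by function were described by the direction of their members, since Egr1 was the only member of any list that passed the edgeR test over the 12 mice. Over all tested genes the median log2FC was −0.015 and 46.7% were above 0. Genes that respond to glucocorticoids had the highest median of the 14 function lists, 0.34, with 18 of 19 members above 0. In floxed against wild-type mice without Cre the median of this list was 0.17, with 15 of 19 above 0. For the difference between the contrasts with and without Cre it was 0.23, with 12 of 19 above 0. Per1, a clock gene that both glucocorticoids and neuronal activity induce, had a log2FC of 0.42 (SE 0.11, adjusted p = 0.357) and Ddit4, a stress-induced inhibitor of mTORC1, had 0.50 (SE 0.15, adjusted p = 0.357). Of 38 genes induced by neuronal activity, 27 were above 0 with a median of 0.13 (0.26 with 28 in females and −0.010 with 18 in males). In floxed against wild-type mice without Cre their median was −0.018 with 17 of 38 above 0. The salt-inducible kinase gene Sik1 had a log2FC of 0.68 over the 12 mice with Cre (SE 0.19, adjusted p = 0.357). Neurexin, neuroligin and CNTNAP adhesion genes had a median of 0.19 with 23 of 26 above 0. In floxed against wild-type mice without Cre their median was −0.11 with 6 of 26 above 0. Extracellular matrix genes had a median of 0.15 with 37 of 56 above 0 (0.20 with 49 of 56 in males and 0.058 with 30 of 56 in females). Without Cre the matrix median was 0.021 with 29 of 56 above 0. Markers of meninges and fibroblasts, which make matrix, had 0.29 with 11 of 15 above 0 (0.66 with 13 of 15 in males and −0.083 with 5 of 15 in females). They summed to between 100.2 and 179 CPM in Egr1cKO and 85.7 and 144 CPM in Cre control mice, and their part in the matrix values was not tested. Axon guidance genes had a median of 0.10 with 46 of 67 above 0, and without Cre −0.096 with 20 of 67.

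Glutamate receptor genes had a median of 0.092, with 34 of 37 above 0, and genes of inhibitory synapses 0.11, with 21 of 24 above 0. In floxed against wild-type mice without Cre these medians were −0.070, with 13 of 38 above 0, and −0.083, with 4 of 24. Wnt pathway genes had a median of 0.094, with 36 of 57 above 0, and without Cre −0.0028, with 27 of 56. With Cre, their member with the smallest p was Fzd4, a Wnt receptor, at 0.50 (SE 0.14). Next was Apc, a part of the beta-catenin destruction complex, at 0.34 (SE 0.099), each with an adjusted p of 0.357. The medians were 0.0064 for p38 kinases and MAPK phosphatases, −0.012 for lysosomal hydrolases and 0.0045 for DNA methylation writers and erasers, the last without a member at an unadjusted p under 0.05. Of 17 genes reported elsewhere as neuronal EGR1 targets, none was called by either tool, 14 were above 0 and the median was 0.11. Of these targets 12 had a promoter in the tables and 6 (50%) held the EGR letters, Ache, Gad1, Nab1, Syn2, Tet1 and Tgfb1. Of the 159 tested genes within 5 Mb of Egr1, 97 were above 0 with a median of 0.069. Without Cre 64 of 161 were above 0 with a median of −0.055.

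**Figure D4:**
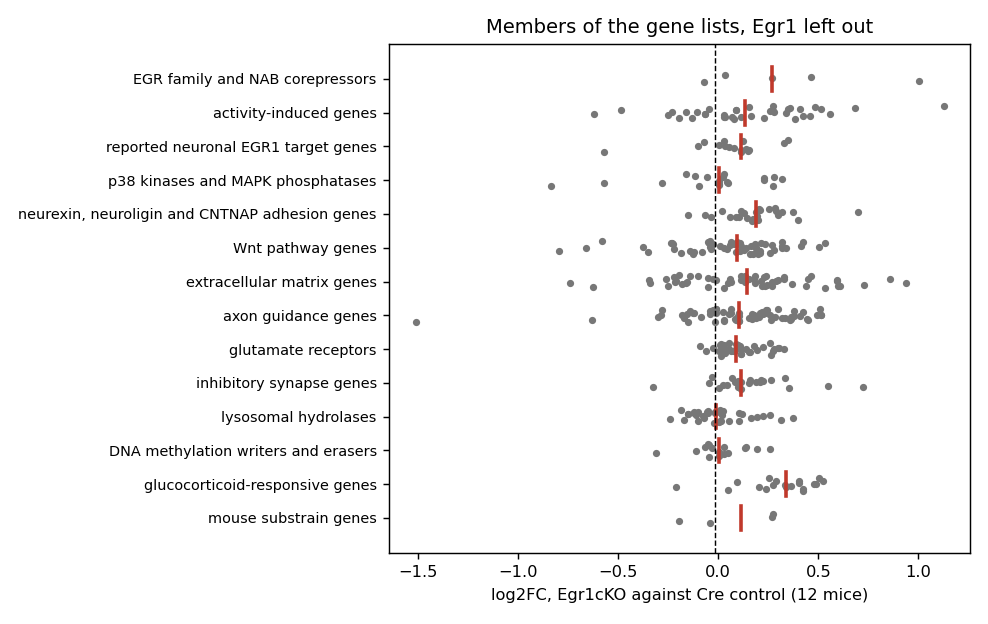
Log2FC of Egr1cKO against Cre control mice over the 12 mice, on the x axis, for each tested member of the 14 function lists with Egr1 left out. Grey points are genes, red bars the median of a list and the dashed line the median of all genes, −0.015. The glucocorticoid-responsive list lies farthest to the right.

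Cell type lists were read the same way. Choroid plexus markers had a median of −0.59 over the 12 mice, −2.23 in females and 1.21 in males, the sign of each following the mouse of that sex with the high choroid level. Oligodendrocyte markers had a median of −0.22, with 3 of 15 above 0, and summed to between 3661 and 5233 CPM in Egr1cKO and 4512 and 6891 CPM in Cre control mice. Endothelial markers had a median of 0.24, with 14 of 15 above 0, and summed to between 399 and 465 CPM in Egr1cKO and 255 and 431 CPM in Cre control mice. Slc2a1 is on this endothelial list. In floxed against wild-type mice without Cre the endothelial median was 0.22, with 13 of 15 above 0. For the difference between the contrasts with and without Cre it was 0.058, with 9 of 15 above 0. Microglial markers had a median of 0.13 with 11 of 12 above 0, and astrocyte markers 0.077 with 8 of 12. Striatal markers had 0.25 with 13 of 14 above 0, and hippocampal subfield markers 0.059 with 16 of 23. The part of cell composition in the differences above was not tested. Leaving out the 2 mice with high choroid markers gave 2 DEGs, Egr1 and Robo3, a receptor for axon guidance whose level is also high in Egr1cKO male 2.

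In females alone, edgeR found 310 DEGs among 17141 genes (1.81%). Of these 230 (1.34%) rose and 80 (0.467%) fell in Egr1cKO mice. Of all genes tested in females, 3007 (17.5%) had an unadjusted p under 0.05. The count of female DEGs depended on single mice. Without Egr1cKO female 1 or 3 no gene was called (2563 and 2282 genes at an unadjusted p under 0.05), while the log2FC of Egr1 in females stayed at −3.30 and −3.18, with adjusted p values of 0.073 and 0.061. Without Egr1cKO female 2 there were 5 DEGs, and without Cre control female 1, 2 or 3 there were 1322, 160 and 60. In a fit that shares the spread of all 12 mice, the female contrast had 4 DEGs, which were Egr1, Slc2a1, Muc3a and the TEC gene 2900027M19Rik. DESeq2 called 908 genes in females (6.83%), 703 higher (5.29%) and 205 lower (1.54%). Of the 17909 genes tested over the 12 mice, 23.6% did not overlap between the 3 female Egr1cKO and the 3 female Cre control mice, against 7.21% in males. With 3 mice against 3, some genes are apart by chance alone, so for a single gene being apart carries little weight.

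Of the female DEGs in the function lists, Egr1, Robo3 and Col4a2 fell and the others rose in Egr1cKO mice. Their counts stand beside 1.34% of all tested genes that rose in females and 0.467% that fell. More of the long genes rose. Of protein coding genes, 148 of 2669 with above 8000 bases of exon rose, and 38 of 2046 with 6000 to 8000. From 3000 to 4000 bases 3 of 2211 rose. The share of all genes is therefore low for lists of long genes, and no list was set against genes of like length. Among genes induced by activity, 5 of 38 rose. The orphan nuclear receptor gene Nr4a2 was at 114, 91.4 and 86.7 CPM in female Egr1cKO mice and 47.6, 52.6 and 62.2 CPM in female controls (log2FC 0.85, SE 0.13, adjusted p = 0.0146). Fosl2, of the AP-1 family, was at 97.7, 99.7 and 96.4 CPM against 43.0, 69.1 and 55.6 CPM (log2FC 0.81, SE 0.14, adjusted p = 0.0249). The groups were apart for both genes in females, whereas in males no Egr1cKO mouse was above all controls for either gene. Nr4a3, Per1 and Sik1 rose too in females, with log2FCs of 0.79, 0.62 and 0.95 and adjusted p values of 0.0481, 0.0133 and 0.0286. Of the 18 glucocorticoid-responsive genes tested in females 3 rose, Per1 again, Tsc22d3, which encodes the leucine zipper protein GILZ (log2FC 0.89, SE 0.18, adjusted p = 0.0413), and Klf9, a Kruppel-like factor (log2FC 0.49, SE 0.095, adjusted p = 0.0340). The median of that list was 0.62 in females and 0.034 in males.

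Of 66 axon guidance genes, with a median exonic length of 7110 bases, 7 rose and 1 fell. The plexin genes Plxna1, Plxna2 and Plxna4 encode semaphorin receptors and rose with log2FCs of 0.58, 0.45 and 0.50, and Nrp1, their coreceptor, rose by 0.61. Slit3, a secreted repellent, was at 109, 115 and 109 CPM in Egr1cKO and 62.0, 75.1 and 56.9 CPM in control females (log2FC 0.78, SE 0.11, adjusted p = 0.0125). Its receptor gene Robo1 rose (log2FC 0.69, SE 0.10, adjusted p = 0.0133) whereas Robo3 fell, from 41.9, 40.9 and 47.0 CPM in controls to 23.1, 18.8 and 24.7 CPM (log2FC −0.96, SE 0.12, adjusted p = 0.0103). The ephrin receptor gene Epha6 was at 93.2, 86.4 and 93.1 CPM against 43.8, 53.3 and 54.2 CPM (log2FC 0.85, SE 0.098, adjusted p = 0.00851). In males Egr1cKO male 3 was at 40.3 and Cre control male 2 at 119 CPM of Epha6, the lowest and the highest of the 6 males, and the log2FC was 0.18 (SE 0.42).

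Synaptic genes that rose in females were Cntnap5b, Cntnap2 and Cntn1 among 26 adhesion genes, Grin2b and Grm5 among 37 glutamate receptor genes and Gabrb1 and Gabrb2 among 24 genes of inhibitory synapses. Their log2FCs were 1.02, 0.55, 0.41, 0.44, 0.39, 0.52 and 0.72 in that order. The median exonic lengths of the adhesion, glutamate receptor and inhibitory synapse lists were 6333.5, 6129 and 6451 bases. Grin2b, a subunit of the NMDA receptor, was at 941, 910 and 995 CPM against 670, 704 and 717 CPM (SE 0.072, adjusted p = 0.0190), and the groups were apart. In males Grin2b was at 1263, 895 and 523 CPM in Egr1cKO and 650, 1190 and 635 CPM in control mice and overlapped. Of the matrix genes Reln and the laminin gene Lama2 rose and the collagen gene Col4a2 fell (log2FC −0.45, SE 0.086, adjusted p = 0.0331). Within 5 Mb of Egr1, 5 of 156 genes rose in females and none fell, beside 1.34% and 0.467% of all genes, Pura and the protocadherin genes Pcdh1, Pcdhac2, Pcdhga3 and Pcdhgc5. The Pcdhg genes share their last exons, so reads there cannot be assigned to a single gene.

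The female DEGs with the largest fitted differences were low in level. AC160336.1, a long noncoding RNA gene, had between 1.26 and 1.36 CPM in Egr1cKO females and no count in control females. Gm12868, an antisense gene that overlaps Slc2a1, was at 1.71, 1.82 and 0.975 CPM against 0.288, 0.105 and 0.152 CPM (log2FC 2.99, SE 0.56, adjusted p = 0.0299), and without strand its reads cannot be told from those of Slc2a1. The chemokine gene Ccl28 was at 12.6, 10.1 and 7.29 CPM against 4.46, 3.58 and 4.30 CPM (log2FC 1.28, SE 0.23, adjusted p = 0.0271). Gm35082 had no count in Egr1cKO females and 2.64 to 3.46 CPM in control females, but in males both groups held mice at 0 and mice above 2 CPM. Gm44676 and Gm45177, TEC genes, were at or below 0.140 CPM in Egr1cKO and between 0.556 and 1.63 CPM in control females.

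In males, 1 of 17406 genes was a DEG (0.00575%), and this was Egr1 (log2FC −3.66, SE 0.23, adjusted p = 0.000573), while 450 (2.59%) had an unadjusted p under 0.05. DESeq2 called 2 genes in males (0.00627%), 1 higher and 1 lower (0.00314% each). In females Egr1 had −3.25 (SE 0.30, adjusted p = 0.00851), and its adjusted p in females rose to at most 0.126 when single mice were left out or another setting was used. The difference of the Egr1cKO effect between the sexes was tested for 18468 genes and none was called (0% called, 797 with an unadjusted p under 0.05, and 1 gene by DESeq2). For Slc2a1, Muc3a and Nr4a2, chosen after their values were seen, the difference between the sexes was 0.72, −1.44 and 0.98 on the log2 scale, each with an adjusted p of 0.963. The call of a gene in females is therefore not shown to be a difference between the sexes.

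The effects in the sexes come from separate mice and could be set side by side. Over 16776 genes tested in both sexes, the log2FCs had a Pearson r of 0.103 and a Spearman rho of 0.221, and 60.6% had the same sign, where genes are not independent points and share the libraries of their sex. Of 229 genes higher in females that were tested in males, 218 were above 0 in males (50.6% of all genes were), with a median of 0.17 against 0.51 in females. Of 76 lower genes, 57 were below 0, with a median of −0.081 against −0.61. The genes higher in females were long, with a median exonic length of 9800.5 bases. In males the median log2FC of protein coding genes above 8000 bases was also above 0, at 0.082. All genes are therefore not a like yardstick for the 218, and genes of like length were not compared.

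Exonic length moved with the difference. Among protein coding genes the median log2FC in females went from −0.18 for genes with up to 1000 bases of exon to 0.13 for those above 8000, and in males from −0.14 to 0.082. The slope of a library's deviation on length, in log2 units per 10-fold length, was 0.164, 0.183 and 0.208 in the female Egr1cKO mice, the highest of all 24 mice, and between −0.127 and −0.0335 in the female Cre controls. In males it was 0.146, 0.0259 and −0.0604 in Egr1cKO and −0.142, 0.110 and −0.146 in Cre control mice, so that Egr1cKO male 3 and Cre control male 2 each lay with the other group. The female DEGs had a median exonic length of 9800.5 bases where higher, 4762.5 where lower and 4070.5 over all tested genes. Once the length trend of each library was removed, 105 female genes were called (0.613%), 60 higher (0.35%) and 45 lower (0.263%), and 97 of them were among the 310. In the same fit the median of the glucocorticoid-responsive list over the 12 mice was 0.35 and that of the adhesion genes 0.14, against −0.0027 for all genes. The median of the reported EGR1 targets was 0.051 there, with 12 of 17 above 0. For glutamate receptor genes it was 0.082 with 28 of 37 above 0, and for genes of inhibitory synapses 0.12 with 19 of 24. In females Grin2b had a log2FC of 0.23 and Plxna2 of 0.29 in this fit, and neither was called. Over the 12 mice this fit called Egr1 alone.

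TEC genes moved the opposite way in females. Of 592 tested, 12 were lower, none was higher and their median log2FC was −0.43, whereas the median was −0.0040 over 638 such genes in males. Their mean log2 CPM was −1.10, −0.84 and −0.82 in female Egr1cKO and −0.11, −0.12 and −0.66 in female Cre control mice. This mean did not overlap between the female groups, so as a covariate it can take up part of the genotype difference. With it as a covariate no gene was called in females (2262 with an unadjusted p under 0.05). The log2FC of Egr1 in females was −3.41 there, with an adjusted p of 0.126, and Egr1 was called over the 12 mice. The female log2FCs of Nr4a2, Nr4a3, Per1 and Klf9 were 0.40, 0.40, 0.40 and 0.25 in this fit. Over the 12 mice those of Lncpint, Gm38198 and Gm42770 were −0.65, −0.96 and −0.93. Gm38198 and Gm42770 belong to the TEC class whose mean is the covariate, so a smaller difference is partly built in for them. The mitochondrial share of counts was between 4.39% and 4.60% in female Egr1cKO and 5.24% and 5.71% in female Cre control mice. In males it was between 4.31% and 6.12% against 4.12% and 6.60%. Total counts were also apart in females, from 21837663 to 27677816 in Egr1cKO and from 18702206 to 19938139 in Cre control mice. The part of RNA quality or depth in the female DEGs was not tested.

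**Figure D5:**
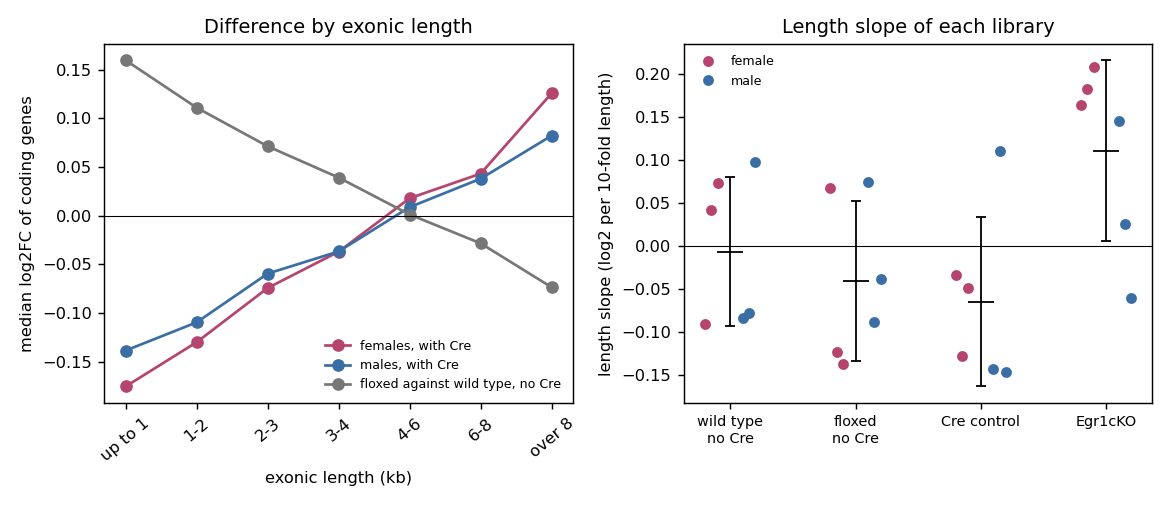
Left, the median log2FC of protein coding genes by exonic length in kb for Egr1cKO against Cre control females and males and for floxed against wild-type mice without Cre. Right, the length slope of each of the 24 libraries by genotype with the mean ± SD of 6 mice. The contrasts with Cre rise with length, from −0.18 to 0.13 in females, and the contrast without Cre goes from 0.16 to −0.074.

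The floxed and wild-type mice without Cre differ in the same allele and the same series of mice and share no mouse with the 12. Of 18220 genes tested between them none was called by edgeR (0%), 1716 had an unadjusted p under 0.05 and DESeq2 called 2. Of the 25 tested genes among the DESeq2 calls above, 9 had the same sign there as with Cre and all 25 had a smaller difference. These genes were chosen for their difference with Cre, so a smaller difference in other mice is expected from the choice alone. Slc2a1 had a log2FC of 0.34 without Cre (SE 0.13, adjusted p = 0.524) in this fit of both sexes. Floxed females were at 68.6, 71.5 and 78.1 CPM and wild-type females at 43.9, 46.3 and 43.2 CPM. Its level was thus apart between the alleles in females with and without Cre. In females alone, the study's pairwise comparison of these genotypes reported Slc2a1 as upregulated in floxed mice. Mapk11 was higher in floxed mice without Cre by 0.31 (SE 0.11, adjusted p = 0.524) and lower in Egr1cKO mice. Of the genes higher in Egr1cKO females, 10 of 229 were above 0 without Cre, where 50.1% of all genes were, with a median of −0.17, and the median by exonic length fell from 0.16 to −0.074. In the difference between the contrasts with and without Cre, 18766 genes were tested, 1 (0.00533%) was called, Egr1, and 3534 had an unadjusted p under 0.05. DESeq2 called 335, 254 higher and 81 lower, of the 3250 genes to which it gave an adjusted p.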

How the data were processed

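RNA of the hippocampus was extracted with the RNeasy kit, and polyA, non-stranded libraries were sequenced on the NovaSeq platform. The authors trimmed the reads, mapped them with STAR to GRCm38 (mm10) and deposited whole-number counts per gene without normalization, for 36605 Ensembl genes. The submitters' processing notes name Trim Galore 3.8.2, FastQC and STAR 2.7.9, while the annotation behind the counts is not given in the sources used here. Symbols of 36493 genes, positions and exonic lengths came from GENCODE M21. Totals of the 12 mice had a median of 21709775, and since no 2 mice of a group differed by less than the sampling noise each mouse is 1 replicate.

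Levels are CPM with TMM factors from 19742 genes kept over 24 mice. Differences were tested on the counts with edgeR 4.0.16 in R 4.3.3 (filterByExpr with a minimum count of 10, quasi-likelihood F test, Benjamini-Hochberg adjustment), with sex as a covariate where both sexes entered. Standard errors were taken as |log2FC| over the root of the F statistic. A DEG needed a 1.2-fold change and an adjusted p not above 0.05, and an interaction the latter alone. The named genes are Egr1, the called genes, the EGR family, genes that the study names, the called or else the 2 leading members of each list, and the 3 largest rises and falls in a sex. Only some of the leading members are described here. Alternatives were DESeq2 1.42.0, its size factors in edgeR, limma-voom (limma 3.58.1), no filter, other FC minimums, no sex term, a replicate block, shared fits, the TEC level as a covariate, and mice left out. Removal of the length trend (loess offsets, span 0.5) and the TEC covariate in females were chosen after seeing the data. The tests were checked on simulated counts with known changes. These were drawn without a length trend, a TEC shift or choroid-rich mice, so the check does not cover such features of the libraries. Values of 2 genes are not reported here. The comparison, lists and tests were chosen with earlier results of these data known.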

Additional observations from a re-analysis of the deposited data

Results flagged for a closer look

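In groups of 6 mice of a genotype, 22 of 164 values tested over the named genes had a mouse whose gap to the others passed the Dixon limit, where chance flags about 5% of groups. No cause was tested.

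Egr1cKO male 3 stood apart for 6 genes, low for Lamc1 (43.6 CPM, the other 5 mice at 54.5 to 60.7), Grm5 (272), Cyfip2 (941) and Slc4a4 (170), and high for Nxph4 (3.54) and Lamp5 (41.0). Cre control male 2 stood apart for 5, high for Tenm1 (50.1 CPM, the others at 30.0 to 34.4), Grm5 (385), Cyfip2 (1260) and Pcdhga3 (16.9), and low for Bpgm (40.7). These are the male mice whose length slopes lay with the other group.

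Cre control female 1 was high for F5 (19.8), Grid2ip (4.46) and Lamp5 (73.9) and low for Ddit4 (28.6). Egr1cKO male 2 was high for F5 (8.34), Calml4 (1.44) and Robo3 (51.0) and low for Reln (62.5), and F5 and Calml4 are choroid plexus markers. Rgs11 was high in Cre control male 1 (55.0), Wdfy1 was low in Cre control male 3 (21), and Gm43256 was at 0.0467 CPM in Egr1cKO female 2 and at 0 in the other 5 Egr1cKO mice.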

How the results depend on the processing

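Egr1 was called in all 22 alternatives over the 12 mice (log2FC −3.61 to −3.32), and in 10 of 13 in females. For Egr1cKO against Cre control the count of DEGs was 30 with DESeq2, 529 without the filter on low counts and 3 in a fit of all 24 mice (Egr1, Slc2a1 and Muc3a). It was 2 without the choroid-rich mice, and 1 to 795 with single mice left out. Of the 795 genes, 225 (28.3%) were among the 310 female DEGs (72.6% of those), which are 1.81% of the genes tested in females. Both fits hold the same females, so an overlap is built in. In females it was 908 with DESeq2, 1301 without the filter, 105 with the length trend removed, 4 in a fit of 12 mice, 0 with the TEC covariate and 0 to 1322 with mice left out. In males it was 2 with DESeq2, 72 without the filter and 1 to 2 with mice left out. The difference between the sexes had 1 with DESeq2, 140 without the filter and 0 to 1 with mice left out. Without Cre, DESeq2 gave 2, no filter 163 and mice left out 0 to 1. The interaction of floxed allele and Cre had 335 with DESeq2 and 1173 without the filter. The log2FC of Nab1 ran from −0.013 to 0.079 with mice left out. The cause of these changes was not tested. With the replicate number as a block, females had 1 DEG and males 2, and no other count moved. Same-numbered mice correlated from −0.112 to 0.114 in their deviations, so the numbers are not taken as a pairing. Genes below about 1 CPM rest on few counts, and 3 mice against 3 leave the spread largely borrowed from other genes.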

Other observations

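Gm13394, a processed pseudogene, was the only gene other than Egr1 called in males by DESeq2 and the only gene called for a difference between the sexes by it, and was chosen after its values were seen. It was at 77.2 and 83.4 CPM in 2 Egr1cKO males and at 0.196 CPM in the third, and between 0.0960 and 0.267 CPM in the Egr1cKO females and all Cre controls. Among the mice without Cre, 1 floxed female was at 89.1 and 1 wild-type male at 88.0 CPM, and the others were at or below 0.329 CPM. Gm38116, a TEC gene, had no count in any of the 12 mice with floxed alleles, with or without Cre, against 0.111 to 0.624 CPM in Cre controls and 0 to 0.513 CPM in wild-type mice.

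Among female DEGs with a promoter, 42 of 177 higher genes (23.7%) and 7 of 50 lower genes (14%) held the EGR letters. Of all tested genes with a promoter 11.8% did. A gene counted if any of its promoters held them, so genes with more starts have more chances of a match. After removal of the length trend 11 of 43 higher (25.6%) and 5 of 29 lower genes (17.2%) held them. These shares were not tested.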
